A study of Mus musculus with 2 samples.

Results

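The 107 genes described here are the oxidative phosphorylation genes of a mouse lung single-cell experiment. They are the matrix genes whose symbols start with Nduf, Uqcr, Sdha, Sdhb, Sdhc, Sdhd, Cox4, Cox5, Cox6, Cox7, Cox8, Atp5 or mt- and that had at least 20 unique molecular identifiers (UMIs, counted mRNA molecules) in the cells carrying either hashtag. Of the 22597 genes in the matrix, 111 had such a symbol. Cox7b2 and Cox8c had 0 UMIs, Cox8b had 3 and Ndufa4l2 had 10, so these 4 were left out. Just inside the minimum were Cox4i2 with 35 UMIs and Cox7a1 with 203. The members comprise 94 genes of the nuclear genome and all 13 protein-coding genes of the mitochondrial genome, which carry the prefix mt-.

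Oxidative phosphorylation is carried out by 5 protein complexes of the inner mitochondrial membrane. Complexes I and II pass electrons from NADH and succinate to ubiquinone, complex III passes them to cytochrome c, complex IV passes them to oxygen, and complex V makes ATP from the proton gradient. Complex II is encoded wholly in the nucleus, whereas the other complexes combine subunits made in the cytosol with subunits made inside the organelle from mitochondrial transcripts. In macrophages the balance between respiration and glycolysis is known to differ between activation states.

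The Tgfbr2-KO group consisted of lung cells from chimeras that had received CD45.1-CD45.2+ marrow with LyzM-Cre and the Tgfbr2 fl/fl alleles, and the control group of cells from chimeras given Tgfbr2 fl/fl marrow of the same CD45 type without Cre. LyzM-Cre drives recombination in myeloid cells, and Tgfbr2 encodes a receptor subunit for TGF-beta. All hosts were IM-DTR mice, irradiated and of the type CD45.1+CD45.2+, and received 50 ng of diphtheria toxin 10 days before sacrifice. Donor cells that were Ly6G-, SiglecF-, CD11b+, CD64+ and low in side scatter were sorted from the pooled lungs of 5 chimeras per genotype, stained with a hashtag antibody per genotype and run together in a single 3′ library. Each genotype is therefore 1 pool of cells with no replicate: no test between genotypes was possible, and every interval below covers counting error only.

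The Tgfbr2-KO pool held 2710 cells with 30849916 gene UMIs and a median of 10221 per cell, and the control pool held 1911 cells with 16332176 and a median of 7750. Tgfbr2 itself was measured at 195 UMIs per 1000000 gene UMIs (UPM, the scale of every level below) in the Tgfbr2-KO pool and at 215 in the control pool, but a 3′ tag can lie outside the deleted part and so does not check the deletion. The labelled cell type was met by the defining macrophage genes C1qa, C1qb and C1qc, which summed to 10373 UPM in Tgfbr2-KO cells and 11503 in control cells. Genes of other cells summed to low levels over all cells of both pools: the 10 neutrophil genes summed to 150 and 59.9 UPM in Tgfbr2-KO and control cells, the 9 structural-cell genes to 125 and 62.7, and the 10 T and NK cell genes to 7.13 and 2.45. The dendritic cell list summed to 109 UPM in Tgfbr2-KO cells and 124 in control cells, the B and plasma cell list, almost all of it Ighm, to 152 and 135, and the alveolar macrophage list to 61.7 and 82.3. Ly6g had 2 UMIs in Tgfbr2-KO cells and 0 in control cells. Over all cells, the 10 genes induced by tissue dissociation summed to 7255 UPM in Tgfbr2-KO cells and 8955 in control cells, with 2 of the 10 higher in Tgfbr2-KO cells. Their part in the results below was not tested.

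The nuclear and the mitochondrial members differed between the pools in opposite directions. Nuclear members summed to 19728 UPM (95% Poisson interval 19678 to 19777) in the Tgfbr2-KO pool, against 14462 (14404 to 14521) in the control pool, which is 1.36-fold higher in Tgfbr2-KO cells. The mt- members summed to 23624 UPM (23570 to 23678) in the Tgfbr2-KO pool, against 29359 (29276 to 29443) in the control pool, which is 1.24-fold lower in Tgfbr2-KO cells. There were thus 0.835 nuclear member UMIs per mt- UMI in Tgfbr2-KO cells and 0.493 in control cells, a 1.70-fold difference. Genes of the cytosolic ribosome summed to 148708 UPM in Tgfbr2-KO cells and 148411 in control cells. In pooled cells, a change in every cell and a change in the mix of cells give the same sum, so the sums by cell state are given further on.

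Among the 93 nuclear members with at least 100 UMIs over both pools, 70 were at least 25% higher in Tgfbr2-KO cells and 2 at least 20% lower, which are the same step on a ratio scale. Over all 10246 genes with that many UMIs, 27.1% were that much higher and 15.6% that much lower. At 1.5-fold, 16 nuclear members were higher, where 11.9% of all genes were, and 2 were lower, where 7.43% were. In all, 85 of the 93 had a ratio above 1, against 60.1% of all genes. The median log2 ratio of Tgfbr2-KO over control was 0.47 for nuclear members, -0.43 for mt- members and 0.09 for all genes. None of the 13 mt- members was higher in Tgfbr2-KO cells, 9 were at least 20% lower and 2 at least 1.5-fold lower. mt-Nd1, mt-Co1 and mt-Co2 turned to the other side under the widest subtraction of free RNA tried. Within complexes I, III, IV and V, most nuclear members were thus higher and all mt- members lower in Tgfbr2-KO cells, as the plot of members by complex shows.

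**Figure D1:**
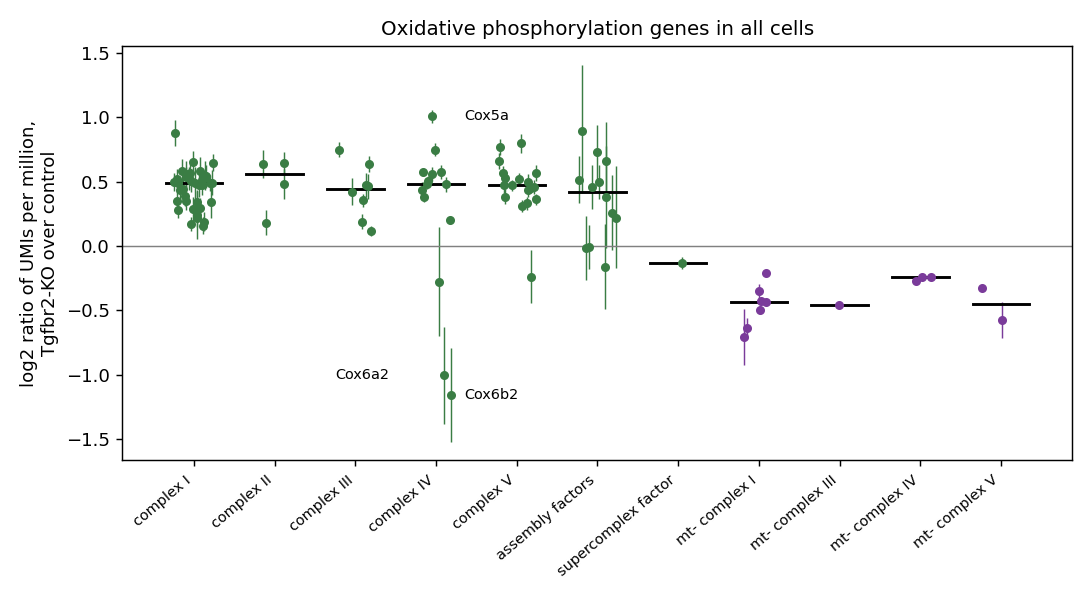
Log2 ratio of UPM, Tgfbr2-KO over control, for each counted member in all cells, grouped by complex (points, with 95% counting intervals as lines and the group median as a bar). The nuclear members (green) of complexes I to V have medians between 0.44 and 0.56, and every mt- member (purple) lies below 0.

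Complex I, the NADH dehydrogenase, had 36 nuclear members, all of them higher in Tgfbr2-KO cells, and 28 by at least 25%. They summed to 5242 UPM in Tgfbr2-KO cells and 3888 in control cells. The highest ratio was that of Ndufs4, an accessory subunit whose loss causes Leigh syndrome, with 113 UPM in Tgfbr2-KO cells and 61.8 in control cells (1.83-fold, interval 1.71 to 1.97). The lowest was that of Ndufa6, with 192 in Tgfbr2-KO cells and 172 in control cells. Ndufa13 was the most abundant, at 345 UPM in Tgfbr2-KO cells and 246 in control cells. Catalytic core subunits were among those that differed: Ndufs8 and Ndufv2, which hold iron-sulfur clusters, were each 1.5-fold higher, while the core subunit Ndufs1 was 1.18-fold higher.

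The 7 mt- subunits of complex I form its membrane arm and ran the other way, with a sum of 4961 UPM in Tgfbr2-KO cells and 6433 in control cells. mt-Nd1 had 1523 UPM in Tgfbr2-KO cells and 1758 in control cells, the smallest difference of the 13 mt- genes. mt-Nd2 had 1279 in Tgfbr2-KO cells and 1729 in control cells, and mt-Nd4 had 1336 in Tgfbr2-KO cells and 1799 in control cells. The scarce transcripts showed the largest ratios: mt-Nd4l, encoded on a shared transcript with mt-Nd4, had 88.7 UPM in Tgfbr2-KO cells and 138 in control cells (1.56-fold lower). mt-Nd6, the only protein-coding gene on the other mitochondrial strand, had 378 UMIs in Tgfbr2-KO cells and 326 in the fewer control cells (1.63-fold lower in UPM, interval 1.40 to 1.89). For mt-Nd3 and mt-Nd5 the log2 ratios were -0.49 and -0.35. As mt-Nd4l overlaps mt-Nd4 on that transcript, and mt-Atp8 likewise overlaps mt-Atp6, the counting could split their reads and their own values are uncertain.

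Complex II, succinate dehydrogenase, showed the difference although it has no mitochondrially encoded subunit. Its 4 genes summed to 406 UPM in Tgfbr2-KO cells and 288 in control cells (1.41-fold). The iron-sulfur subunit Sdhb had 151 in Tgfbr2-KO cells and 96.7 in control cells. The membrane anchor Sdhd had 92.1 in Tgfbr2-KO cells and 59.2 in control cells, and the other anchor, Sdhc, was 1.39-fold higher in Tgfbr2-KO cells. The flavoprotein subunit Sdha, which oxidises succinate, differed least, at 93.9 UPM in Tgfbr2-KO cells and 82.8 in control cells (1.13-fold, interval 1.06 to 1.21).

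Complex III, the cytochrome bc1 complex, had 8 nuclear members, all higher in Tgfbr2-KO cells, with a sum of 1915 UPM in Tgfbr2-KO cells and 1486 in control cells. Uqcrq, a small accessory subunit, had 297 in Tgfbr2-KO cells and 177 in control cells. The hinge protein Uqcrh, the most abundant of the 8, hardly differed, at 514 in Tgfbr2-KO cells and 473 in control cells (1.09-fold). The catalytic core of this complex is made partly by mt-Cytb, which had 2236 UPM in Tgfbr2-KO cells and 3070 in control cells (1.37-fold lower, interval 1.36 to 1.39).

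Complex IV, cytochrome c oxidase, held both ends of the list. Its 15 nuclear members summed to 5485 UPM in Tgfbr2-KO cells and 3869 in control cells (1.42-fold). Cox5a, a subunit on the matrix side, had the highest ratio of all nuclear members, with 530 UPM in Tgfbr2-KO cells and 264 in control cells (2.01-fold, interval 1.94 to 2.08). Its partner on the matrix side, the zinc-binding subunit Cox5b, had 415 in Tgfbr2-KO cells and 247 in control cells. The most abundant members differed unequally. Cox4i1, the regulatory subunit IV, had 851 in Tgfbr2-KO cells and 741 in control cells (1.15-fold). Cox8a had 846 in Tgfbr2-KO cells and 568 in control cells (1.49-fold). Without Cox5a the nuclear sum was still 1.35-fold higher in Tgfbr2-KO cells.

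The 3 mt- subunits of complex IV form its catalytic core. mt-Co3 had 4930 UPM in Tgfbr2-KO cells and 5952 in control cells, mt-Co2 had 3923 in Tgfbr2-KO cells and 4626 in control cells, and mt-Co1 had 3022 in Tgfbr2-KO cells and 3567 in control cells. None of the 3 was 20% lower in Tgfbr2-KO cells. Within the mt- UMIs their shares were higher in Tgfbr2-KO cells: mt-Co3 took 20.9% of mt- UMIs in Tgfbr2-KO cells and 20.3% in control cells, while mt-Cytb took 9.47% in Tgfbr2-KO cells and 10.5% in control cells. The makeup of the mt- UMIs was thus nearly the same in both pools, and the lower sum was spread over all 13 genes.

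Complex V, the ATP synthase, had 18 nuclear rows in the matrix, of which 17 were higher in Tgfbr2-KO cells, with a sum of 6112 UPM in Tgfbr2-KO cells and 4386 in control cells. Atp5g1, Atp5g2 and Atp5g3 encode the same mature c subunit of the proton-turned ring and differed unequally. Atp5g3 had 209 UPM in Tgfbr2-KO cells and 120 in control cells (1.74-fold), Atp5g1 was 1.48-fold higher and Atp5g2, the most abundant of the 3 with 390 in Tgfbr2-KO cells and 315 in control cells, was 1.24-fold higher. Atp5md, a small subunit of the membrane part, had 311 in Tgfbr2-KO cells and 183 in control cells. Among the most abundant, Atp5e was 1.37-fold and the catalytic beta subunit Atp5b 1.43-fold higher in Tgfbr2-KO cells. Atp5o stands in the matrix under a pair of gene identifiers at the same annotated place on chromosome 16: ENSMUSG00000022956 had 226 UPM in Tgfbr2-KO cells and 157 in control cells, and ENSMUSG00000116933 had 16.7 and 19.7. As the counting could split reads between them, both values are uncertain. The membrane subunits mt-Atp6 and mt-Atp8 had 4521 and 31.4 UPM in Tgfbr2-KO cells and 5665 and 46.7 in control cells.

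The members that do not build a complex themselves were less uniform. The 12 assembly factors summed to 229 UPM in Tgfbr2-KO cells and 175 in control cells, and 9 were higher in Tgfbr2-KO cells. Ndufaf1 and Ndufaf3, which help to build complex I, had 5.12 and 25.1 UPM in Tgfbr2-KO cells and 2.76 and 15.2 in control cells. Ndufaf2, Ndufaf7 and Sdhaf3 lay on the other side, with log2 ratios of -0.01, -0.01 and -0.16. Cox7a2l, which joins complexes III and IV into supercomplexes, was the only nuclear member over 100 UPM that was lower in Tgfbr2-KO cells, with 338 UPM in Tgfbr2-KO cells and 370 in control cells (1.10-fold lower, interval 1.06 to 1.13).

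The start sites of 4 members are shown: Cox5a, which had the highest ratio, Cox5b and Sdhd, each over 1.5-fold higher in Tgfbr2-KO cells, and Cox7a2l, an abundant member that was lower in them. Each line gives the 250 bases before the start in RefSeq's table for GRCm38.p6, 5′ to 3′ on the gene's strand, with capitals where a script found GCGCATG (the core of the NRF1 site), CCGGAAG (an ETS family core, bound by GABPA) or GATGGCG (a YY1 core) on either strand. The Cox5a window lies inside the gene's annotated span, so a further start is annotated upstream of it.
Cox5a, chr9:57520982-57521231, strand +: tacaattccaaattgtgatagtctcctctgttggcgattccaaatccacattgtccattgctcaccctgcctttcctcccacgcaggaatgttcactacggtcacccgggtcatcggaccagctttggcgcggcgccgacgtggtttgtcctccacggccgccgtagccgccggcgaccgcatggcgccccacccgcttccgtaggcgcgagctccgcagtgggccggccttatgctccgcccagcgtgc
Cox5b, chr1:36691237-36691486, strand +: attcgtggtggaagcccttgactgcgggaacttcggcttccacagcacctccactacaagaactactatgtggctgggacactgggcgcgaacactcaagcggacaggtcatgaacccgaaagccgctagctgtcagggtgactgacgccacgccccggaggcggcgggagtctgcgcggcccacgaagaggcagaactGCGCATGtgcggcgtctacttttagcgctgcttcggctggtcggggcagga
Sdhd, chr9:50603850-50604099, strand -: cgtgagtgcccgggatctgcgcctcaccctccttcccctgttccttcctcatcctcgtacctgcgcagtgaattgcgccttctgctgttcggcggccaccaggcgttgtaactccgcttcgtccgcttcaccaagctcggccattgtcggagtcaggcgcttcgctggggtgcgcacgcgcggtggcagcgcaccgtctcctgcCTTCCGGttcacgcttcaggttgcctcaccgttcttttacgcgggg
Cox7a2l, chr17:83514334-83514583, strand -: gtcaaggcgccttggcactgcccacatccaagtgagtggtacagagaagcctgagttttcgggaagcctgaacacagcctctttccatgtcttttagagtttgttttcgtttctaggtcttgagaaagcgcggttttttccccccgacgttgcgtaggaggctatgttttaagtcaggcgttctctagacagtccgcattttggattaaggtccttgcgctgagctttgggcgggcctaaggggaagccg
Cox5b holds an NRF1 core and Sdhd an ETS core read on the other strand, while Cox5a and Cox7a2l hold none of the letters searched. Nuclear members with an entry in the table numbered 77 of 93 symbols, with 82 windows of 300 bases. An NRF1 core stood in 18.3% of these windows and in 3.91% of all 32851 windows. The ETS core stood in 26.8% of member windows and 8.86% of all, and the YY1 core in 14.6% and 3.49%. At least 1 of the 3 was found in 40 of the 82 member windows (48.8%), against 14.7% of all windows. The windows of all genes were not limited to genes measured in these cells, whereas the members had to pass a UMI minimum. A match describes letters in a window and is no measurement of binding. Over all cells, Nrf1 had 41.4 UPM in Tgfbr2-KO cells and 40.5 in control cells, Gabpa 19.5 and 22.1, and Yy1 65.4 and 60.4. The part of these factors in the results was not tested.

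Cell states were set by marker UMIs in cells thinned to 3000 UMIs. Cells with complement C1q genes were divided by the CD206 list (Mrc1, the gene of CD206, with Cd163, Folr2, Lyve1, Cd209f and F13a1) into CD206-high, intermediate and CD206-low. Before that division, proliferating cells were taken out first by cell cycle genes, and then cells without C1q. Interferon-activated cells were taken out next by Cxcl9, Ly6i, Ly6a, Gbp2 and Iigp1. Cells high in Fn1 and Gpnmb followed, by those genes with Atp6v0d2, Ctsk and Pdpn. Proliferating cells and cells without C1q could therefore also carry the interferon genes. Cells without C1q were monocyte-like where they carried monocyte genes such as Ly6c2, Plac8 and Ace. The pools differed in this mix: interferon-activated cells numbered 552 (20.4%) in the Tgfbr2-KO pool and 9 (0.471%) in the control pool, monocyte-like cells 263 (9.70%) and 37 (1.94%), CD206-low cells 616 (22.7%) and 770 (40.3%), and Fn1 Gpnmb cells 43 (1.59%) and 154 (8.06%).

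Nuclear members were at very different levels in these states. In the Tgfbr2-KO pool monocyte-like cells were highest, at 25896 UPM, and interferon-activated cells next, at 24274. CD206-high cells were lowest, at 13749, below intermediate cells at 16694 and CD206-low cells at 17525. In the control pool the ends of the order were the same, with 19582 UPM in monocyte-like cells and 12254 in CD206-high cells. Proliferating cells, at 18869, came next to the highest in control cells, and the control Fn1 Gpnmb and CD206-low cells, at 15155 and 15230, did not differ beyond their counting intervals. Nor did the Tgfbr2-KO proliferating cells, at 20612, and the other low C1q cells, at 20868.

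The mt- members had their own order. Monocyte-like cells, highest for nuclear members, were lowest for mt- members in both pools, with 17499 UPM in Tgfbr2-KO cells and 24206 in control cells. Cells high in Fn1 and Gpnmb had the highest level of any control state, 37819, whereas the 43 Tgfbr2-KO cells of that state had 25046. In monocyte-like cells there were 1.48 nuclear UMIs per mt- UMI in the Tgfbr2-KO pool and 0.809 in the control pool, against 0.581 and 0.457 in CD206-high cells. The alveolar macrophage list, which shares Chil3 with the monocyte gate, summed to 169 UPM in the monocyte-like cells of the Tgfbr2-KO pool and 2083 in those of the control pool. Its part in their values was not tested.

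**Figure D2:**
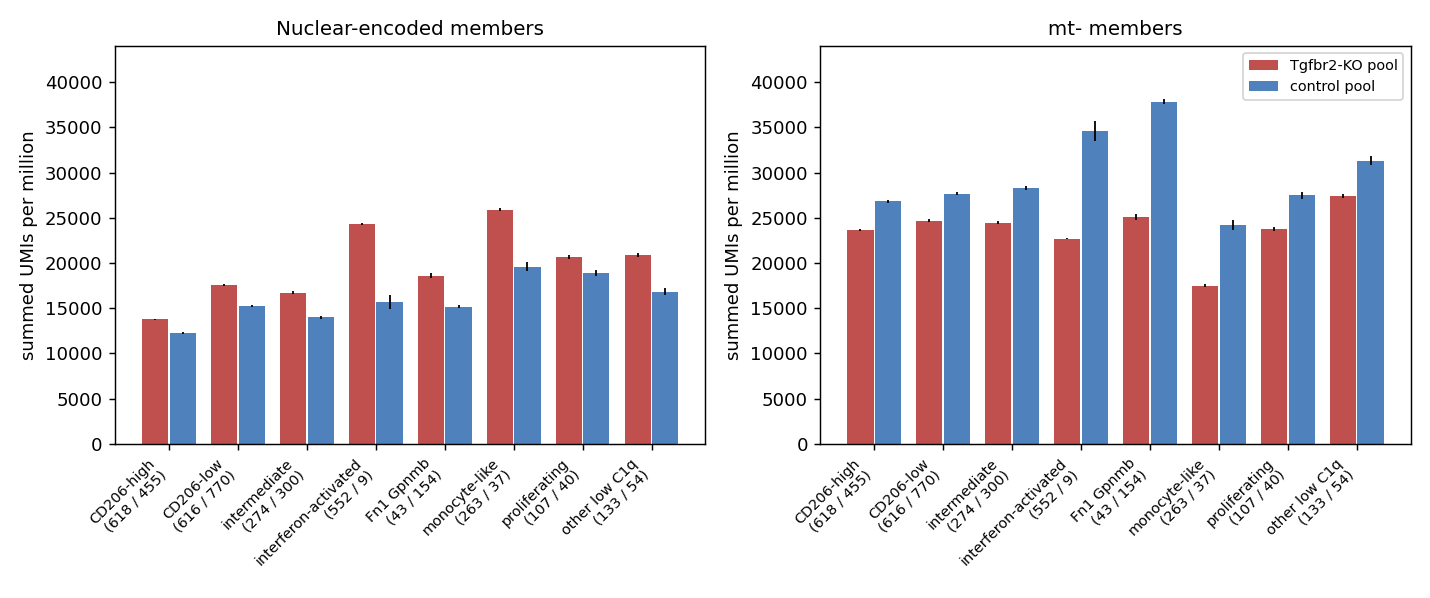
Summed UPM of nuclear-encoded members (left) and mt- members (right) in each cell state, Tgfbr2-KO pool (red) left of control pool (blue), with 95% Poisson intervals and the numbers of Tgfbr2-KO and control cells below each state. In every state the red bar is higher on the left and lower on the right, including interferon-activated cells, where the control pool has 9 cells.

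The 3 states with at least 100 cells in both pools, CD206-high, CD206-low and intermediate, had smaller differences than all cells together, in the same directions. In CD206-high cells the nuclear members summed to 13749 UPM in the Tgfbr2-KO pool and 12254 in the control pool (log2 0.17), and the mt- members to 23675 and 26844 (log2 -0.18). In CD206-low cells the nuclear sums were 17525 in Tgfbr2-KO cells and 15230 in control cells (log2 0.20) and the mt- sums 24678 and 27668 (log2 -0.16). In intermediate cells they were 16694 in Tgfbr2-KO cells and 13968 in control cells (log2 0.26), and 24464 and 28239 (log2 -0.21). In Fn1 Gpnmb and monocyte-like cells, with fewer cells, the log2 ratios of the mt- sums were -0.59 and -0.47, larger than the -0.31 of all cells. The median monocyte-like cell differed less, with 17041 mt- UPM in the Tgfbr2-KO pool and 19128 in the control pool, where the sums were 17499 and 24206. The median Fn1 Gpnmb cell had 23678 in the Tgfbr2-KO pool and 38723 in the control pool. The Tgfbr2-KO states, with the cells given no state as a further group, were also weighted by the control pool's mix. The log2 ratio over all cells was then 0.23 for nuclear and -0.24 for mt- members. With these weights 22 of the 93 nuclear members were at least 25% higher, where 18.8% of all genes were. The 10 dissociation genes were higher in Tgfbr2-KO than in control CD206-high cells, at 10445 and 8888 UPM. They were lower in Tgfbr2-KO cells in the CD206-low (8288 and 9487) and intermediate states (9182 and 9714). Their part in the differences by state was not tested. The monocyte genes of the gate were higher in Tgfbr2-KO cells in the CD206-high, CD206-low and intermediate states. They summed to 59.0 UPM in Tgfbr2-KO and 29.0 in control CD206-high cells, and to 261 and 103 in CD206-low cells. In intermediate cells they summed to 171 and 69.0. The part of monocyte genes, or of cells close to monocytes, in the differences by state was not tested.

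Counted per gene within states, the nuclear members were mostly small steps in a common direction. At least 25% higher in Tgfbr2-KO cells were 12 of 84 counted nuclear members in CD206-high cells, where 18.1% of all genes were, 24 of 86 in CD206-low cells, where 21.4% were, and 29 of 81 in intermediate cells, where 19.2% were. Among genes with at least 1000 UMIs in the state, 6 of 48 nuclear members were that much higher in CD206-high cells, where 11.7% of such genes were, 15 of 63 in CD206-low cells, where 13.6% were, and 7 of 28 in intermediate cells, where 12.2% were. The share of members above a ratio of 1 was larger than that of other genes: 79 of 84 in CD206-high cells against 56.9% of all genes, 79 of 86 in CD206-low cells against 64.9%, and 78 of 81 in intermediate cells against 59.2%. Of the 81 nuclear members counted in all 3 states, 74 (91.4%) were higher in Tgfbr2-KO cells in each, 2 were lower in each and 5 were mixed, whereas 36.3% of the 5043 genes counted in all 3 were higher in each and 18.7% lower in each. The 2 were Cox7a2l and Ndufaf2, and the 5 were Ndufb10, Ndufs1, Uqcr11, Uqcrfs1 and Uqcrh. Of the 12 mt- members counted in all 3 states, 11 were lower in Tgfbr2-KO cells in each, and mt-Atp8 was mixed, with a log2 ratio of 0.01 in intermediate cells. At least 20% lower were 4 of 13 mt- members in CD206-high cells (12.8% of all genes), 2 of 13 in CD206-low cells (8.27%) and 1 of 12 in intermediate cells (11.4%).

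Cox5a was among the 3 highest in each state. It had 305 UPM in Tgfbr2-KO and 212 in control CD206-high cells, 426 and 260 in CD206-low cells, and 384 and 231 in intermediate cells. In interferon-activated and monocyte-like Tgfbr2-KO cells it reached 773 and 692 UPM. Uqcrq had 193 UPM in Tgfbr2-KO and 132 in control CD206-high cells. Ndufs4 had 88.3 in Tgfbr2-KO and 60.9 in control CD206-low cells, but 69.2 and 59.9 in CD206-high cells, where the interval of its log2 ratio reached below 0 (-0.03 to 0.44). Sdhd in intermediate cells had 81.8 in Tgfbr2-KO and 54.9 in control cells. The assembly factor Ndufaf2 had the lowest ratio in intermediate cells, with 44 UMIs in Tgfbr2-KO cells and 70 in control cells (log2 -0.86, interval -1.43 to -0.29).

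Interferon-activated cells carried part of the difference over all cells. Without them, the nuclear sum had a log2 ratio of 0.32 and 51 of the 93 nuclear members were at least 25% higher, where 24.8% of all genes were. The mt- ratio without them was -0.29, close to that with them. The interferon genes of the gate were still higher in Tgfbr2-KO cells in the states left in. They summed to 249 UPM in Tgfbr2-KO and 42.8 in control CD206-high cells, and to 338 and 33.5 in CD206-low cells. In intermediate cells they summed to 239 and 34.3, and in monocyte-like cells to 4916 and 324. Their part in the remaining differences was not tested.

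Per cell, the nuclear members shifted as a broad tail and the mt- members as a whole. Out of 3000 UMIs, the median Tgfbr2-KO cell had 50 nuclear member UMIs, with 10% of cells at or above 87, and the median control cell had 41, with 10% at or above 61. For mt- members the medians were 67 in Tgfbr2-KO cells and 82 in control cells. Unthinned, the medians for nuclear members were 16841 UPM in Tgfbr2-KO cells and 13580 in control cells, and for mt- members 22359 and 27214. By state, the median nuclear count was 69 in interferon-activated and 70 in monocyte-like Tgfbr2-KO cells, against 38 in CD206-high Tgfbr2-KO cells and 35 in CD206-high control cells. Across cells of a pool, nuclear and mt- counts were weakly related, with Pearson's r of -0.21 over 2606 Tgfbr2-KO cells and -0.05 over 1819 control cells. The cells of a pool share a library, and both counts are parts of the same 3000 UMIs.

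**Figure D3:**
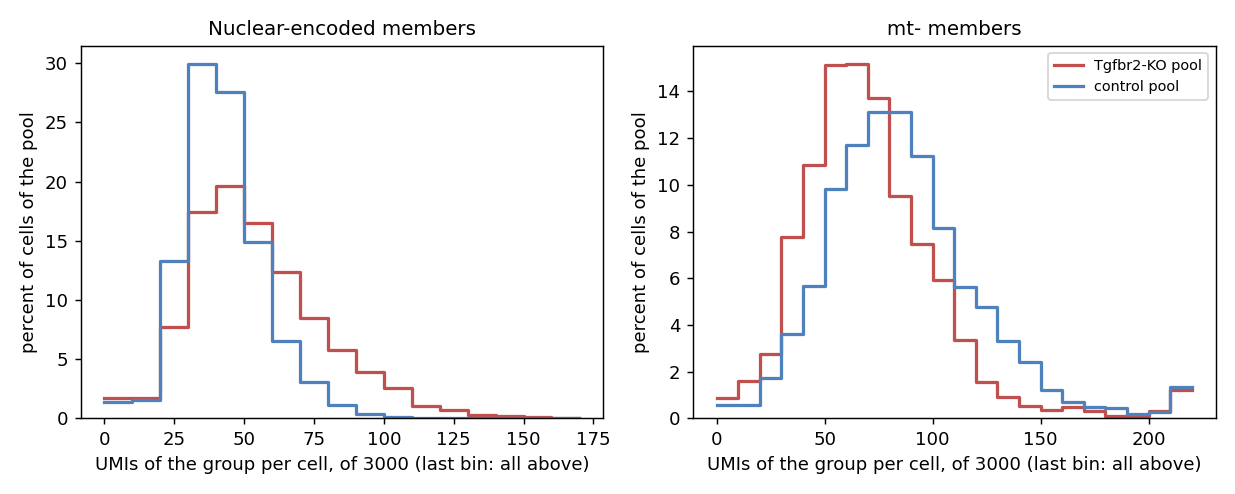
Distribution over cells of the UMIs of nuclear-encoded members (left) and mt- members (right) per cell thinned to 3000 UMIs, as percent of the pool's cells in bins of 10 UMIs, for 2606 Tgfbr2-KO cells (red) and 1819 control cells (blue). The Tgfbr2-KO curve has a longer upper tail on the left (median 50 against 41) and lies lower on the right (median 67 against 82).

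Depth moved with both sums. In cells of 1000 to 5000 UMIs the nuclear members did not differ beyond counting error, with 10619 UPM in Tgfbr2-KO cells and 10862 in control cells (log2 -0.03, interval -0.07 to 0.01), and the mt- members were higher in Tgfbr2-KO cells, at 42239 against 37010 in control cells. In cells of 5000 to 10000 UMIs the nuclear log2 ratio was 0.14 and the mt- ratio -0.17. They were 0.40 and -0.40 in cells of 10000 to 15000 UMIs and 0.49 and -0.51 in deeper cells. Deeper than 15000 UMIs were 616 Tgfbr2-KO cells and 143 control cells. Within states the nuclear log2 ratio was also highest in the deepest cells, but the steps were not all even. CD206-high cells had -0.25 at 3000 to 5000 UMIs (50 Tgfbr2-KO and 47 control cells), 0.07 at 5000 to 10000 and 0.24 above. CD206-low cells had 0.08, 0.02 and 0.24, of which the middle value did not differ from 0 beyond counting error. Intermediate cells had 0.08, 0.15 and 0.21. The mt- ratio was also turned in the shallowest CD206-high and intermediate cells, at 0.19 and 0.25, but not in the shallowest CD206-low cells, at -0.12. In intermediate cells it was -0.32 at 5000 to 10000 UMIs and -0.12 above. The part of depth in the difference between the pools was not tested.

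**Figure D4:**
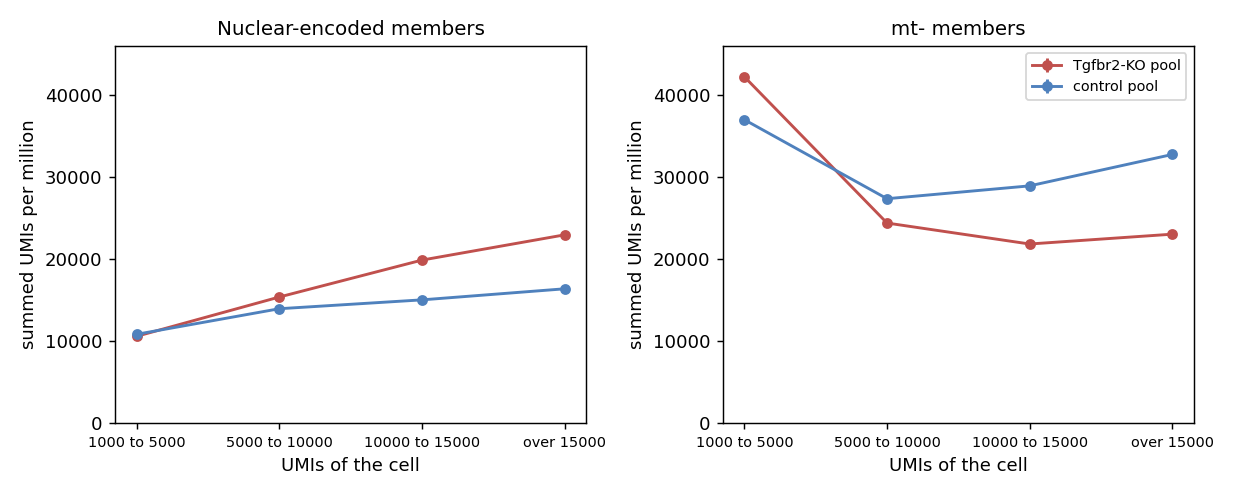
Summed UPM of nuclear-encoded members (left) and mt- members (right) in cells binned by their total UMIs, for Tgfbr2-KO cells (red) and control cells (blue), with 95% Poisson intervals that are mostly smaller than the points. The pools lie together for nuclear members in the shallowest cells (10619 and 10862) and apart in the deepest (22978 and 16405), and the order of the pools for mt- members turns between the first bin and the second.

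Several nuclear subunits have a tissue-specific or alternative isoform, and these cells used the common form. Cox4i2, the oxygen-sensitive partner of Cox4i1, made up 0.0951% of the pair's UMIs in Tgfbr2-KO cells and 0.0826% in control cells. The heart and muscle isoform Cox6a2 made up 1.57% of the Cox6a pair in Tgfbr2-KO cells (exact interval 1.30% to 1.87%) and 4.12% in control cells (3.44% to 4.90%). The testis isoform Cox6b2 made up 0.726% of the Cox6b pair in Tgfbr2-KO cells and 2.25% in control cells. These were also the only counted nuclear members at least 20% lower: Cox6a2 had 3.79 UPM in Tgfbr2-KO cells and 7.59 in control cells, and Cox6b2 had 3.86 and 8.57. Cox6a2 was concentrated in a few states, with 7.01 UPM in Tgfbr2-KO and 22.9 in control Fn1 Gpnmb cells, 17.3 and 39.3 in other low C1q cells, and 0 UMIs in monocyte-like cells of either pool. In the other low C1q cells the dendritic cell list summed to 261 UPM in the Tgfbr2-KO pool and 928 in the control pool, and the structural-cell list to 1056 and 124, and their part in these values was not tested. Within the 3 states with enough cells it had at most 30 UMIs in either pool. Cox7a1, the muscle form of Cox7a2, had 3.99 UPM in Tgfbr2-KO cells and 4.84 in control cells (interval of the fold 0.90 to 1.62).

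Ndufa4, named for complex I but a subunit of complex IV, has a paralog, AA467197 (known as Nmes1, C15orf48 in human), which is induced in inflammatory cells and can take its place in the complex. Ndufa4 had 263 UPM in Tgfbr2-KO cells and 189 in control cells, and AA467197, which is outside the rule, had 241 and 204. The paralog's share of the pair over all cells was 47.8% in Tgfbr2-KO cells and 51.9% in control cells, but the states spanned almost the whole range. In CD206-high cells it was 5.39% (exact interval 4.35% to 6.58%) in the Tgfbr2-KO pool and 15.7% (13.5% to 18.0%) in the control pool. In CD206-low cells it was 47.8% in Tgfbr2-KO and 50.7% in control cells, and in intermediate cells 29.1% and 31.0%. Fn1 Gpnmb cells had 58.7% in the Tgfbr2-KO pool and 84.9% in the control pool, and other low C1q cells 75% in both. In 3 states the share was higher in the Tgfbr2-KO pool. Monocyte-like cells had 42.8% (40.7% to 44.9%) in the Tgfbr2-KO pool and 5.56% (2.07% to 11.7%) in the control pool. The control value there rests on 6 UMIs of the paralog in 37 cells. Interferon-activated cells had 58.3% in the Tgfbr2-KO pool and 16.2% (6.19% to 32.0%) in the control pool, there also with 6 UMIs of the paralog, in 9 cells. Proliferating cells had 39.9% (36.6% to 43.3%) in the Tgfbr2-KO pool and 27.1% (21.3% to 33.5%) in the control pool.

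**Figure D5:**
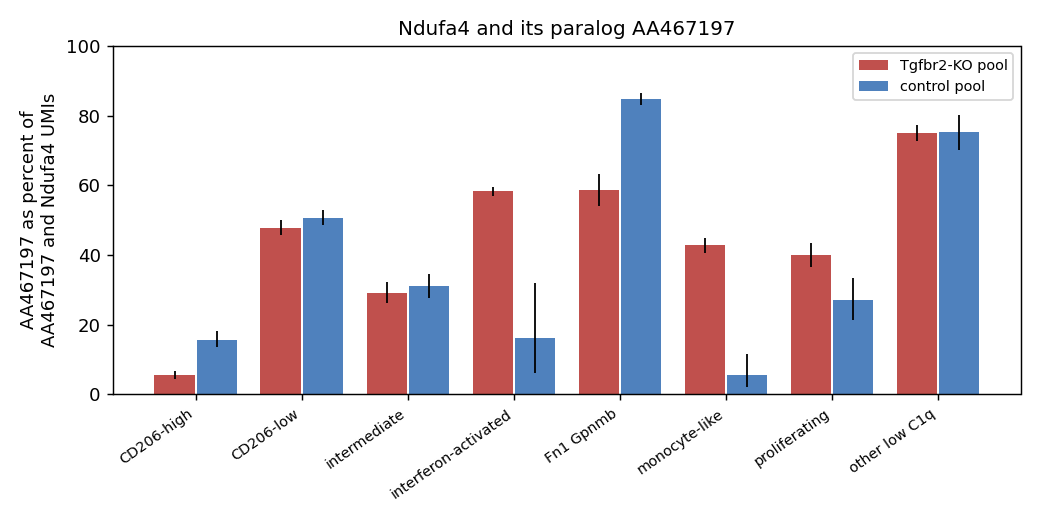
AA467197 UMIs as percent of AA467197 and Ndufa4 UMIs together in each cell state, Tgfbr2-KO pool (red) left of control pool (blue), with exact 95% binomial intervals. The share ranges from 5.39% in Tgfbr2-KO CD206-high cells to 84.9% in control Fn1 Gpnmb cells, and the share is higher in the Tgfbr2-KO pool in monocyte-like (42.8% and 5.56%), interferon-activated and proliferating cells.

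Other genes of the pathway followed the nuclear members to different degrees. Beside their counts over all cells stand the shares of all counted genes, 60.1% with a ratio above 1 and 27.1% at least 25% higher in Tgfbr2-KO cells. The values of these lists, here and in the next paragraph, are over all cells and are not given by state. The part of the unlike mix of states in them was not tested. Of 13 counted electron carriers and partners of the ATP synthase, which include the member Atp5md, 11 were higher in Tgfbr2-KO cells (median log2 0.27) and 5 by at least 25%. Cycs, cytochrome c, had 243 UPM in Tgfbr2-KO cells and 120 in control cells (2.03-fold), and Slc25a5, an ADP/ATP carrier, had 415 and 273. Of 34 counted assembly factors outside the members, 29 were higher (median 0.35), led by factors of complex IV: Sco1, a copper chaperone, had 4.67 in Tgfbr2-KO cells and 1.90 in control cells, Cox11, another copper chaperone, 7.20 and 3.25, and Coa5 50.4 and 22.4. Coa7 was 1.87-fold and Higd1a 1.98-fold higher. In the tricarboxylic acid cycle list 15 of 18 were higher (median 0.32). Acod1, which makes itaconate, an inhibitor of complex II, had 130 UPM in Tgfbr2-KO cells and 11.2 in control cells (11.6-fold), and Suclg1, Fh1 and Cs were 1.69-fold, 1.55-fold and 1.51-fold higher.

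Transcripts of the mitochondrial ribosome and of import and cristae proteins were mostly higher, while the other lists were less uniform. Of 77 counted mitochondrial ribosomal protein genes, 73 were higher in Tgfbr2-KO cells (median log2 0.43), 52 by at least 25% and 20 by at least 1.5-fold, with Mrpl47, Mrpl19 and Mrpl38 at 1.93-fold, 1.89-fold and 1.86-fold. Of 24 import and cristae genes, 23 were higher (median 0.38), including Timm10 at 1.73-fold, Apool at 1.69-fold and Timm8b at 1.5-fold. The genes that copy, transcribe and process mitochondrial DNA had 12 of 20 higher, 7 of them by at least 25%, and a median of 0.16, near the 60.1%, 27.1% and 0.09 of all genes. Among them Tfam, which packages mitochondrial DNA and starts its transcription, had 11.8 UPM in Tgfbr2-KO cells and 7.47 in control cells, Tfb2m had 7.29 and 4.84, and Mterf4 had 3.79 and 2.39, while the polymerase Polrmt had 2.63 and 2.76. Of 14 counted regulators of mitochondrial biogenesis, 7 were higher (median -0.04). Hif1a, the hypoxia-inducible factor, had 190 in Tgfbr2-KO cells and 91.4 in control cells, the coactivator Ppargc1b had 402 UMIs and 125 UMIs (1.70-fold higher in UPM), and Myc was lower, with 20.1 in Tgfbr2-KO cells and 35.8 in control cells.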

How the data were processed

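The deposited matrix holds UMI counts per gene and barcode, made by the authors with Cell Ranger 8.0.0 per the file headers, and the genome build is GRCm38 per the submitters' processing notes, which also name Seurat 5.1.0. In the deposited hashtag table, the authors' assignment probabilities are fractions and their hashtag columns are log10 of the matrix count plus 1, which was checked on the file. B0303 marks the Tgfbr2-KO pool and B0301 the control pool, per the labels. Cells assigned to either hashtag with at least 1000 UMIs and 500 genes were kept, without a limit on mt- UMIs because mt- genes are members: over 10% mt- were 36 Tgfbr2-KO and 15 control cells. Barcodes the table calls multiplets were left out, and no caller was run for doublets within a pool.

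Counts were summed per pool and state and divided by all gene UMIs (UPM). Intervals are 95%: exact Poisson for levels, conditional binomial for ratios and Clopper-Pearson for shares; all cover counting error only. With 1 pool per genotype no test was run. Genes with at least 100 UMIs were counted by their ratio. The calculation of ratios and intervals was run on simulated Poisson counts. These hold counting error only, so the run checks the calculation and not the variation between cells or pools. States were gated on cells thinned to 3000 UMIs: at least 3 proliferation UMIs; at most 1 C1q UMI, with at least 3 monocyte UMIs for monocyte-like; at least 5 interferon or 5 Fn1 Gpnmb UMIs; at least 4 CD206 UMIs for high and at most 1 for low. The text names all mt- members, the nuclear members at either end of the ratios (8 each in all cells, 3 each per state), the 3 most abundant per complex, isoforms, and related genes past 1.5-fold; a few more are named as the ends of a range, after their values were seen. Members, lists and gates were chosen with earlier results of these data known. Python 3.11.15, numpy 2.4.6 and scipy 1.17.1 were used. Alternatives covered cell filters, scaling, depth, free RNA, mix of states and gates.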

Additional observations from a re-analysis of the deposited data

How the results depend on the processing

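Direction held for the nuclear sum, the mt- sum and their ratio over all cells under each alternative run, with log2 ratios of Tgfbr2-KO over control between 0.23 and 0.63, between -0.40 and -0.24, and between 0.47 and 0.90. It did not hold within the shallowest cells of all states together, nor in the shallowest CD206-high and intermediate cells for mt- members. In the shallowest CD206-low cells it held, as the values by depth above show. The values as reported were 0.448, -0.314 and 0.762, and in the same order the alternatives gave the following. Cells thinned to 3000 UMIs gave 0.364, -0.247 and 0.612, and cells of 5000 to 15000 UMIs gave 0.319, -0.279 and 0.598. Without interferon-activated cells they were 0.317, -0.291 and 0.607. Without low C1q cells they were 0.406, -0.290 and 0.696, and with the Tgfbr2-KO states weighted as in the control mix 0.227, -0.242 and 0.469. Subtracting free RNA bounded by hemoglobin and structural genes gave 0.633, -0.266 and 0.899. That bound was wide, allowing up to 79.1% free RNA in Tgfbr2-KO cells and 40.2% in control cells. Its structural genes include Sftpc and Scgb1a1, at 62.0 and 33.8 UPM in Tgfbr2-KO cells and 15.6 and 22.8 in control cells. Pecam1, also in that list, had 17.1 UPM in Tgfbr2-KO cells and 16.6 in control cells. With hemoglobin genes alone the bound allowed 0.940% and 1.90%, and the subtraction gave 0.459, -0.320 and 0.779. Trimmed-mean scaling, which moved all genes by 0.09, gave 0.357 and -0.404, and nuclear-encoded UMIs as the denominator gave 0.439 and -0.322. An assignment probability of at least 0.99 gave 0.458 for nuclear members and 0.776 for the ratio. A limit of 10% mt- UMIs gave -0.335 for mt- members and 0.785 for the ratio, and leaving out ungated cells as well gave -0.332 and 0.777.

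The 70 nuclear members at least 25% higher became 22 with the control mix of states, where 18.8% of all genes were that much higher. The 2 at least 20% lower became 4 with trimmed-mean scaling and with thinned cells, 18 with the free RNA of the wider list, and 0 among genes with at least 500 UMIs, a minimum that Cox6a2 and Cox6b2 do not reach. Other causes were not tested. For gates of double height, the minimum UMIs of each gate were doubled, the CD206-low limit was lowered and the C1q limit was kept. Cells under the doubled interferon minimum could then enter the CD206 states. These gates gave 0.141 and -0.221 in CD206-high cells for nuclear and mt- members and 0.318 and -0.189 in CD206-low cells. Cells of 5000 to 15000 UMIs gave 0.0955 for nuclear members in CD206-high cells, 0.138 and -0.136 for nuclear and mt- members in CD206-low cells, and 0.178 and -0.277 in intermediate cells. Among 377 recomputed ratios of named genes, 14 changed sign, all of them reported above as smaller than the step of 25%. With the free RNA of the wider list, mt-Nd1, mt-Co1 and mt-Co2 turned to 0.33, 0.08 and 0.03; the others were of Atp5o (ENSMUSG00000116933), Ndufaf7 and Cox7a1, at 0.14 or less. The low-C1q, control-mix, hemoglobin-only and ungated-cell alternatives were chosen after seeing the data. No paired analysis was possible because each genotype is 1 pool, and no replicate could be left out.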

Other observations

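Barcodes with at most 100 UMIs, which hold free RNA of the suspension, gave 20223 UPM for nuclear members and 21567 UPM for mt- members over 892716 barcodes. The nuclear level lay near that of Tgfbr2-KO cells (19728) and above that of control cells (14462), and the mt- level lay below both (23624 and 29359). Hemoglobin and Alas2 UMIs, which these cells should lack, numbered 14 in all Tgfbr2-KO cells and 15 in all control cells, against 135 in these barcodes. The totals were unlike, with 30849916 gene UMIs in Tgfbr2-KO cells, 16332176 in control cells and only 2796620 in these barcodes.

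Cells with fewer than 3000 UMIs, which were given no state, numbered 104 in the Tgfbr2-KO pool and 92 in the control pool. Among other low C1q cells, 10% of cells had at most 5 nuclear member UMIs of 3000 in the Tgfbr2-KO pool, and 25% had at most 5 in the control pool, far below the medians of 56 and 41.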
